A study of Drosophila melanogaster with 8 samples.

Results

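The effects of 2 plant polyphenols added to a high-fat diet were set side by side in adult female flies, by comparing females on a fat-rich diet that held quercetin glucoside (the group HFD+QG) with females on that diet holding epigallocatechin gallate (the group HFD+EGCG). The comparison rests on 2 of the 8 libraries of the series, 1 for each diet, and was made across all genes. Of 17655 genes in the female table, 10254 were described, namely those with at least 1 FPKM (fragments assigned to a transcript, scaled by its length and by the library's size) in 1 or more of the 4 female libraries. All flies were of the wild-type strain Canton S of Drosophila melanogaster and were 15 days old when RNA was taken. They had spent 7 days on their diet and a last 2 h on standard food, which lets the gut empty. Wings and legs were removed before extraction. The remaining female libraries, from a high-fat diet without either compound (HFD) and a normal diet (ND), and the 4 male libraries on the same diets gave values beside the comparison and entered, with the 2 libraries compared, a single model over both sexes. The labels give no dose of either compound, no composition of the high-fat diet and no number of flies per library, so it cannot be said whether the compounds were compared at matched doses. The time on the diets was the same.

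Quercetin glucoside is a flavonol, quercetin, carrying a glucose. Epigallocatechin gallate, a catechin of green tea, is a flavan-3-ol esterified with gallic acid. In the fly ovary, follicle cells around each maturing egg chamber lay down the eggshell in sequence, with vitelline membrane proteins made before the chorion proteins. Yolk proteins are made in the fat body and follicle cells and are taken up by the oocyte. The Imd pathway senses bacterial peptidoglycan and drives the genes of antibacterial peptides, chiefly in the fat body and the gut. Cytochrome P450 enzymes of several families oxidise foreign compounds, plant polyphenols among them.

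Because each diet had 1 library of females, no difference between them has a replicate check, and no p-value or error can be given for it. "Higher" and "lower" here mean at least 2-fold on the scale log2(FPKM + 1), read as HFD+QG minus HFD+EGCG, unless values alone are given. This scale understates differences of genes at low FPKM. The deposited FPKM were whole numbers, so depth is unknown, and a gene listed at 0 may hold an amount under the rounding step or an estimate that failed. FPKM summed to 885956 in the HFD+QG library and 900619 in the HFD+EGCG library, with 9841 and 9769 genes above 0. Marker genes followed the labels. The yolk protein gene Yp1 was at 2966 FPKM in HFD+QG females and 3068 in HFD+EGCG females. None of 12 testis genes was described, and 44 accessory gland genes summed to 1 FPKM in each of the 2 libraries. The rhodopsin gene ninaE of the eye was at 2566 FPKM on HFD+QG and 2798 on HFD+EGCG, so the RNA included that of heads.

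Most genes were at nearly the same level on the 2 diets. Among 6831 protein-coding genes at 10 FPKM or more in either library, 6266 (91.7%) lay within 1.2-fold and 6734 (98.6%) within 1.5-fold. The median log2 difference over the 10254 described genes was 0, with 36.3% of genes above 0 and 36.8% below. On HFD+QG, 287 genes were higher (2.80% of 10254) and 202 lower (1.97%), or 4.77% in either direction. Many of these calls were steps of 1 or 2 FPKM. Of 990 genes whose larger value was under 2 FPKM, 28.8% passed the 2-fold mark, against 0.623% of the 2568 genes between 30 and 100 FPKM. Above 10 FPKM the counts were 51 higher (0.721% of 7077 genes) and 35 lower (0.495%). Over all described genes, the root mean square log2 distance between HFD+QG and HFD+EGCG was 0.418. It was 0.450 between HFD+QG and HFD, 0.445 between HFD+EGCG and HFD, 0.762 between HFD+QG and ND and 0.829 between HFD+EGCG and ND. The 2 supplemented females were thus as near to each other as either was to HFD, while ND lay farther from all of them.

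**Figure D1:**
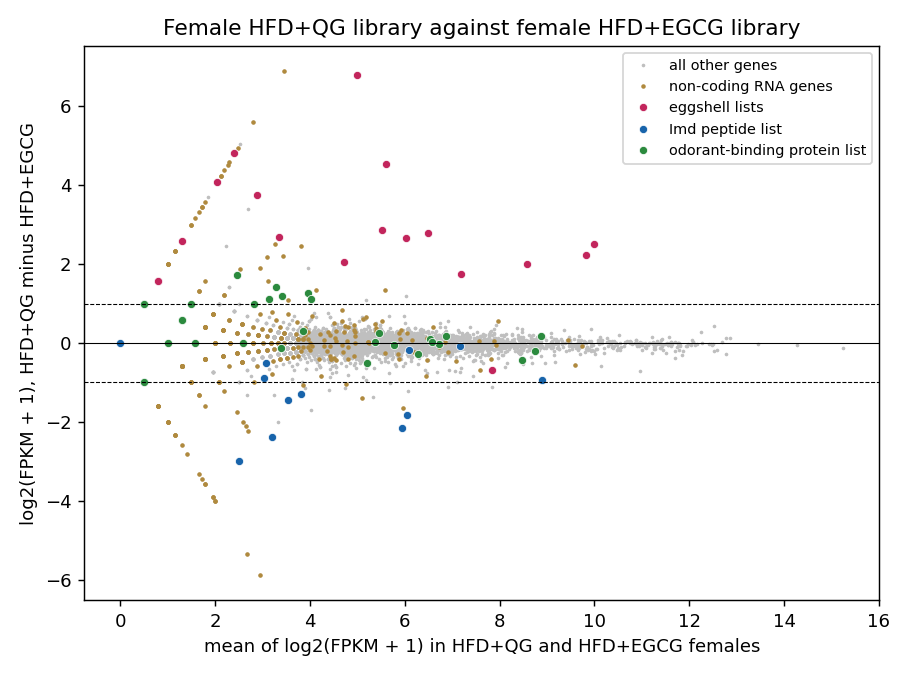
Each point is 1 of the 10254 genes described in females, with the mean of log2(FPKM + 1) over the HFD+QG and HFD+EGCG libraries on the horizontal axis and their difference, HFD+QG minus HFD+EGCG, on the vertical axis. Dashed lines mark 2-fold; eggshell genes (red) lie above the upper line with 1 exception, and Imd peptide genes (blue) lie at 0 or below it.

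**Figure D2:**
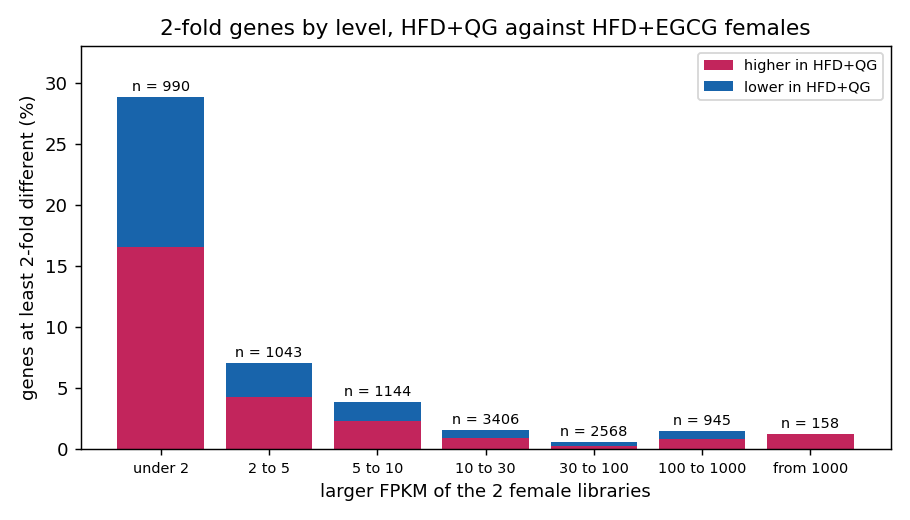
Bars give the percentage of genes at least 2-fold higher (red) or lower (blue) in HFD+QG females than in HFD+EGCG females, by the larger FPKM of the 2 libraries, with the number of genes above each bar. The share was 28.8% under 2 FPKM and 0.623% between 30 and 100 FPKM.

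Among protein-coding genes at 10 FPKM or more, 28 were higher on HFD+QG (0.410% of 6831) and 18 were lower (0.264%). Eggshell genes made up 14 of the 28, and 5 more are in the odorant-binding protein list. That list also holds the antennal genes Os-C and a10, which are among the 5. Imd antibacterial peptides made up 6 of the 18 lower genes. At 10 FPKM or more the lists held 7 vitelline membrane, 8 chorion, 20 odorant-binding protein and 10 Imd peptide genes. These lists were drawn up with earlier results of the same data known, so the counts describe the libraries and support nothing beyond them.

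Genes of the vitelline membrane, the inner layer of the eggshell, were higher on HFD+QG in 7 of 7 cases, against 2.80% of described genes. Their median log2 difference was 2.52, against 0 over all genes. Vm34Ca (2L:13411141-13411631), a major vitelline membrane protein gene, was at 2440 FPKM in HFD+QG females and 426 in HFD+EGCG females, with 326 on HFD and 6015 on ND. Vm26Aa, at 1944 FPKM on HFD+QG and 415 on HFD+EGCG, was at 275 on HFD and 4508 on ND. Vm26Ab had 763 FPKM on HFD+QG and 189 on HFD+EGCG, with 138 on HFD and 1900 on ND. In each of these genes HFD+EGCG was nearer to HFD than to HFD+QG, and HFD+QG lay between them and ND. Vm32E showed the same order, with 233 FPKM on HFD+QG, 33 on HFD+EGCG, 24 on HFD and 583 on ND. The vitelline membrane-like gene Vml was at 123 FPKM on HFD+QG, 16 on HFD+EGCG, 20 on HFD and 249 on ND. Vm26Ac had 26 FPKM on HFD+QG, 1 on HFD+EGCG, 3 on HFD and 52 on ND. The smallest FPKM ratio of HFD+QG to HFD+EGCG among the 7 genes was 4.04, for Vm26Ab, and the largest was 26, for Vm26Ac at 1 FPKM. The palisade gene psd lay within that range at 53 FPKM on HFD+QG and 12 on HFD+EGCG. Summed over the 7 genes, the vitelline membrane list held 5582 FPKM on HFD+QG, 1092 on HFD+EGCG, 795 on HFD and 13418 on ND.

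Genes of the chorion, the outer eggshell, were higher on HFD+QG in 10 of 11 cases, against 2.80% of all described genes. Their median log2 difference was 2.66. They did not behave alike. The 4 genes of the third-chromosome chorion cluster, which are used late in eggshell formation, were at 1 or 2 FPKM on HFD and above that on both supplemented diets, except for Cp19 on HFD+EGCG. In this cluster Cp19 (3L:8729865-8730604) was at 334 FPKM in HFD+QG females and 2 in HFD+EGCG females, a ratio of 167 that rounding alone allows to lie between 133 and 223. It had 2 FPKM on HFD and 1714 on ND. Cp16 (3L:8731944-8732599) had 232 FPKM on HFD+QG and 9 on HFD+EGCG, a ratio of 25.8, with 1 on HFD and 846 on ND. Cp18 (3L:8726791-8727613) was nearer on the 2 diets, at 266 FPKM on HFD+QG and 79 on HFD+EGCG, with 2 on HFD and 931 on ND. Cp15 (3L:8728481-8729066), which lies between Cp18 and Cp19, was the exception in the list. It was at 180 FPKM on HFD+QG and 291 on HFD+EGCG, a log2 difference of -0.69, with 1 FPKM on HFD and 2057 on ND. The order of the 4 neighbours therefore differed between the libraries, with Cp19 at the top on HFD+QG and Cp15 at the top on HFD+EGCG.

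Of the X-linked chorion genes, Cp36 and Cp38, which are used earlier in eggshell formation, had another order of diets. Cp38 (X:8481837-8483311) was at 27 FPKM on HFD+QG and listed at 0 on HFD+EGCG, but at 236 on HFD and 1517 on ND. Its neighbour Cp36 (X:8479319-8480523) was at 16 FPKM on HFD+QG, 0 on HFD+EGCG, 149 on HFD and 1041 on ND. Here both supplemented females lay below HFD, and HFD+QG was still the higher of the pair. Cp7Fa was at 5 FPKM on HFD+QG, 0 on HFD+EGCG and 14 on HFD. The last genes of the X-linked set, Cp7Fb and Cp7Fc, were each at 2 FPKM on HFD+QG and listed at 0 on HFD+EGCG, with 2 and 21 FPKM on HFD. The chorion gene dec (X:7867161-7873222), known as defective chorion, was at 163 FPKM on HFD+QG, 25 on HFD+EGCG, 30 on HFD and 364 on ND, the same order of diets as for Vml. Femcoat, another eggshell gene on the X chromosome, had 25 FPKM on HFD+QG, 3 on HFD+EGCG, 0 on HFD and 121 on ND. Across both eggshell lists, ND exceeded HFD+QG in 18 of 18 genes, HFD+QG exceeded HFD in 13 and HFD+EGCG exceeded HFD in 9. The 18 genes summed to 6834 FPKM on HFD+QG, 1501 on HFD+EGCG, 1253 on HFD and 22512 on ND. Chorion genes belong to related families and may have shared reads, which was not tested.

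**Figure D3:**
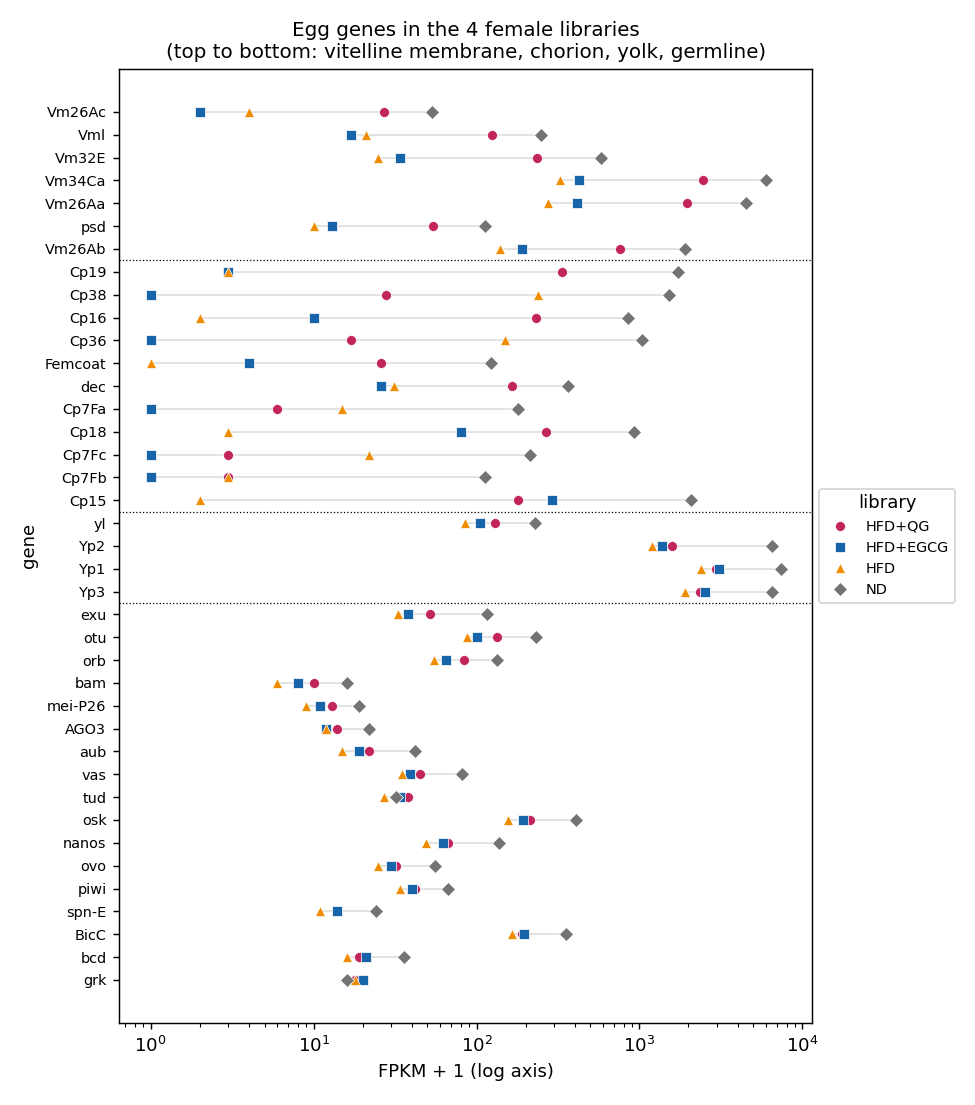
FPKM + 1 on a log axis for each vitelline membrane, chorion, yolk and germline gene in the 4 female libraries, 1 symbol per library. In the vitelline membrane genes the HFD+QG circles lie between the HFD+EGCG and HFD symbols and the ND diamonds, whereas in yolk and germline genes the circles and squares lie within 2-fold of each other.

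Genes of yolk and of the germline did not separate the 2 diets in the same way. None of the 4 genes of yolk proteins and their receptor was 2-fold different, with a median log2 difference of 0.08. Yp2 was at 1576 FPKM on HFD+QG and 1371 on HFD+EGCG, with 1189 on HFD and 6531 on ND. Yp3 was slightly lower on HFD+QG, at 2344 FPKM against 2518 on HFD+EGCG. The receptor gene yl had 128 FPKM on HFD+QG and 104 on HFD+EGCG. Of 17 germline genes, none was 2-fold different, 13 lay above 0 and 3 below, and the median log2 difference was 0.16. Over all described genes, 36.3% lay above 0. The posterior determinant gene osk was at 212 FPKM on HFD+QG and 193 on HFD+EGCG, with 154 on HFD and 407 on ND. The germline genes summed to 989 FPKM on HFD+QG, 886 on HFD+EGCG, 735 on HFD and 1776 on ND. In whole-body RNA, fewer cells of a type and less RNA per cell cannot be told apart. The part that the number of late egg chambers or retained eggs had in the eggshell values was not tested.

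Other protein-coding genes with no place in the eggshell lists also had HFD+QG between ND and the remaining female libraries. Fcp3C, a follicle cell protein gene at X:3173376-3174474, was at 18 FPKM on HFD+QG, listed at 0 on HFD+EGCG, and at 1 on HFD and 47 on ND. CG14309 had 23 FPKM on HFD+QG, 0 on HFD+EGCG, 0 on HFD and 49 on ND. CG14187 had 12, 0, 0 and 31 FPKM in the same libraries. All of them were highest on ND and at or near 0 on HFD+EGCG and HFD. The neighbouring genes CG13084 and CG13083 (2L:19484930-19488691) were at 20 and 29 FPKM on HFD+QG, 1 and 7 on HFD+EGCG, 3 and 3 on HFD, and 111 and 146 on ND. In the HFD+QG, HFD+EGCG, HFD and ND males all 5 of these genes were listed at 0, as were the vitelline membrane genes.

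Antibacterial peptide genes of the Imd pathway were at lower levels on HFD+QG. Of 13 described genes 7 were lower, against 1.97% of all described genes, and none was higher. In the list 12 lay below 0, against 36.8% of all described genes, with a median log2 difference of -1.0. Diptericin A (DptA) was at 28 FPKM in HFD+QG females and 128 in HFD+EGCG females, with 137 on HFD and 13 on ND. Diptericin B (DptB) was at 34 FPKM on HFD+QG, 122 on HFD+EGCG, 213 on HFD and 38 on ND. On the log2 scale, HFD+QG was nearer to ND and HFD+EGCG nearer to HFD for both Diptericins. The cecropin genes CecA1 and CecC (3R:30210874-30216938) were at 1 and 3 FPKM on HFD+QG, 15 and 20 on HFD+EGCG, 7 and 14 on HFD, and 5 and 3 on ND. The attacin gene AttB was at 6 FPKM on HFD+QG and 18 on HFD+EGCG, and AttD at 8 and 21. Rounded values of that size carry wide ratios.

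The most abundant gene of the list, metchnikowin (Mtk), which Toll signalling also induces, missed the 2-fold mark. Its values were 343 FPKM on HFD+QG, 658 on HFD+EGCG, 783 on HFD and 296 on ND. Drosocin (Dro) was almost level, at 138 FPKM on HFD+QG and 146 on HFD+EGCG, as was Defensin (Def) at 63 and 71. Summed over the list, the Imd peptides held 635 FPKM on HFD+QG, 1219 on HFD+EGCG, 1446 on HFD and 498 on ND. The median rests in part on AttC, listed at 0 on HFD+QG and 1 FPKM on HFD+EGCG. Over genes at 10 FPKM or more it was -1.37.

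As a list, the same peptides stood the other way in males. Of 14 genes described there, 8 were at least 2-fold higher on HFD+QG than on HFD+EGCG and none was lower by that much. Over all genes described in males, 2.34% were higher. In the list 12 lay above 0 and 1 below, and the median was 1.25. DptA had 37 FPKM in HFD+QG males, 12 in HFD+EGCG males, 19 on HFD and 99 on ND. DptB had 101, 17, 20 and 74 FPKM in the same male libraries. Mtk was at 535 FPKM on HFD+QG, 129 on HFD+EGCG, 79 on HFD and 350 on ND in males. In males, too, HFD+QG was nearer to ND than HFD+EGCG was in each of these 3 genes, but there ND lay above HFD. The reversal did not hold for every gene that was lower in females. CecA1 was at 197 FPKM in HFD+QG males and 179 in HFD+EGCG males, AttB at 21 and 16, and AttD at 1 and 2. CecC, at 5 and 1, was 2-fold higher. The list summed to 1101 FPKM in HFD+QG males, 443 in HFD+EGCG males, 495 on HFD and 1133 on ND. With 1 library for each diet and sex, no test was made of this difference between males and females.

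**Figure D4:**
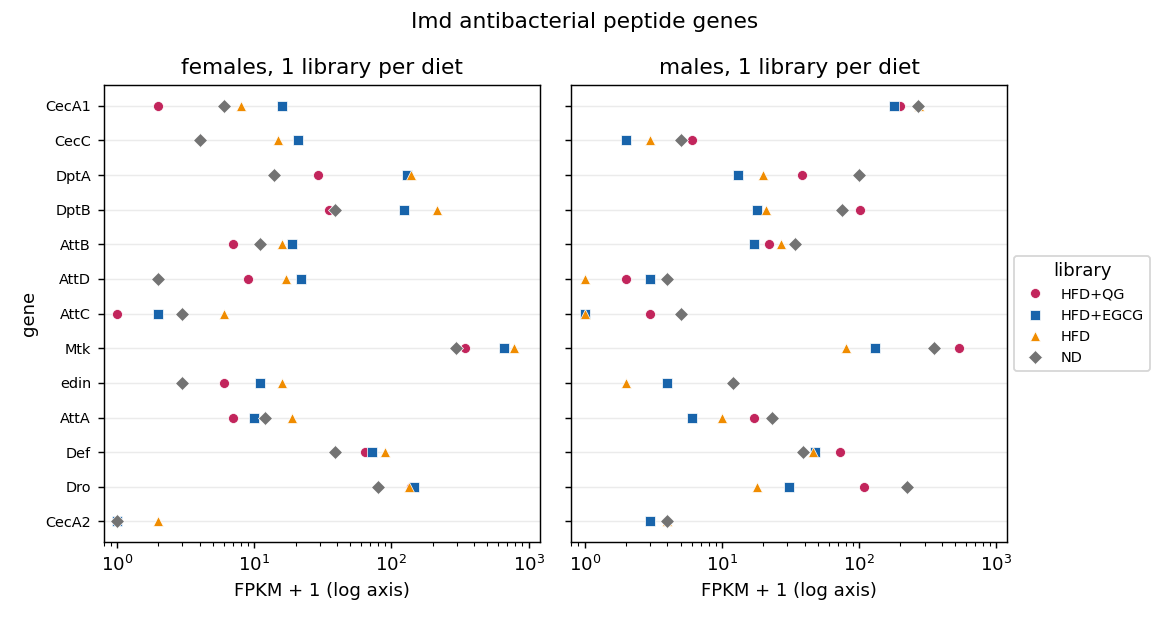
FPKM + 1 on a log axis for the Imd antibacterial peptide genes in the 4 female libraries (left) and the 4 male libraries (right), 1 symbol per library. DptA and DptB are lower on HFD+QG (circles) than on HFD+EGCG (squares) in females and higher in males, and Mtk stands at 343 and 658 FPKM in females and 535 and 129 in males.

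Genes of blood cells and basement membrane moved little beside the peptides. Of 11 described, 1 was higher, against 2.80% of all described genes. In this list 8 lay above 0 and 1 below, against 36.3% and 36.8% of all described genes, with a median of 0.23. The list summed to 306 FPKM on HFD+QG and 254 on HFD+EGCG. Collagen IV (Col4a1) was at 49 FPKM on HFD+QG and 34 on HFD+EGCG. The haemocyte gene Hml was at 5 and 2 FPKM. The part of blood cell number in the peptide values was not tested.

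Other immune genes differed less as groups. The infection-induced gene IBIN was at 35 FPKM in HFD+QG females, 72 in HFD+EGCG females, 144 on HFD and 79 on ND, and in males at 15 on HFD+QG, 6 on HFD+EGCG, 1 on HFD and 252 on ND. The immune-induced gene IM18 was at 43 FPKM on HFD+QG and 102 on HFD+EGCG in females, and at 277 and 100 in males. CG45045 was at 24 and 64 FPKM in females and at 59 and 16 in males. All of these were lower on HFD+QG in females and higher in males, but the female value of IBIN, -1.02 on the log2 scale, fell short of 2-fold with a pseudocount of 5 (-0.94) and after rescaling to 1 sum of FPKM (-0.997). Of 20 Toll peptides and Bomanins, 1 was higher and 1 lower, against 2.80% and 1.97% of all described genes, with a median of -0.09. The antifungal peptide gene Drs was at 2092 FPKM on HFD+QG and 2276 on HFD+EGCG. None of 13 peptidoglycan recognition protein genes was 2-fold different.

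lectin-37Da (2L:19418317-19419029), which encodes a C-type lectin, was lower on HFD+QG in both sexes. It was at 154 FPKM in HFD+QG females, 337 in HFD+EGCG females, 582 on HFD and 160 on ND, and at 21 FPKM in HFD+QG males, 90 in HFD+EGCG males, 71 on HFD and 176 on ND. Over both sexes its mean log2 difference was -1.59 ± 0.77 (SE), with a limma adjusted p of 1. Its neighbour lectin-37Db was at 166 FPKM on HFD+QG and 237 on HFD+EGCG in females. Among 6 lysozymes LysX was lower, at 3 FPKM on HFD+QG and 9 on HFD+EGCG, whereas the abundant digestive lysozyme gene LysD was at 5327 and 4384. Lysozyme genes are near copies of each other and may have shared reads. In the Turandot stress genes the median was 0.27, with TotA at 126 FPKM on HFD+QG and 104 on HFD+EGCG.

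Detoxification genes were at much the same level. Of 70 P450 genes, 2 were higher and 2 lower, close to the shares over all described genes (2.80% and 1.97%). In the list 19 lay above 0 and 38 below, against 36.3% and 36.8% of all described genes, and the median was -0.08. The largest positive difference in the list was 1.0 on the log2 scale. Cyp6a8, a P450 gene induced by foreign compounds, was at 4 FPKM on HFD+QG and 19 on HFD+EGCG, with 3 on HFD and 2 on ND, a ratio of 4.75 (4.11 to 5.57 by rounding). Its relative Cyp6a2 had 2 FPKM on HFD+QG, 6 on HFD+EGCG, 2 on HFD and 1 on ND. Cyp6w1 was at 96 FPKM on HFD+QG and 192 on HFD+EGCG, just short of 2-fold on the log2 scale, with 37 on HFD and 32 on ND. For Cyp6w1 both supplemented diets lay above HFD and ND, whereas for Cyp6a8 and Cyp6a2 HFD+QG was close to them and HFD+EGCG stood apart. Rounded values as low as those of Cyp6a2 carry wide ratios. In males Cyp6a8 did not differ in that way, at 27 FPKM on HFD+QG and 29 on HFD+EGCG, with 14 on HFD and 3 on ND.

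Cyp6d5 was at 111 FPKM on HFD+QG and 185 on HFD+EGCG, and Cyp6g1 at 104 and 170. The epoxide hydrolase gene Jheh1 was at 67 FPKM on HFD+QG, 108 on HFD+EGCG, 51 on HFD and 46 on ND. None of 33 glutathione S-transferase genes was 2-fold different, with 7 above 0, 21 below and a median of -0.07. Over all described genes, 36.8% lay below 0. Of 26 UDP-glycosyltransferases, 1 was higher, against 2.80% of all described genes, and the median was 0.00. The gene CG6908 followed Cyp6a8, at 8 FPKM on HFD+QG, 28 on HFD+EGCG, 6 on HFD and 6 on ND. No list of antioxidant, metal-binding, iron-binding or heat shock genes held a 2-fold member.

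Odorant-binding protein genes, many of which are made in the antenna, did not move as a group, but some were higher on HFD+QG. The list also held the antennal genes Os-C and a10. Of 32 described, 11 were higher and 1 lower, against 2.80% and 1.97% of all described genes. In the list 20 lay above 0 and 9 below, against 36.3% and 36.8% of all described genes. Only 5 of the 11 reached 10 FPKM. The median was 0.17, and 0.07 among members at 10 FPKM or more. The list summed to 2018 FPKM on HFD+QG and 2057 on HFD+EGCG, with 1725 on HFD and 1713 on ND. Its 3 most abundant members on HFD+QG lay within 2-fold, with Obp19d at 498 FPKM on HFD+QG and 442 on HFD+EGCG, Obp56d at 401 and 459, and Obp99c at 304 and 413. Obp83a (3R:5972155-5975245) was at 15 FPKM on HFD+QG and 5 on HFD+EGCG, with 8 on HFD and 4 on ND. Its neighbour Obp83b was at 23 FPKM on HFD+QG, 9 on HFD+EGCG, 10 on HFD and 6 on ND. The antennal genes Os-C and a10 had 15 and 23 FPKM on HFD+QG and 6 and 10 on HFD+EGCG, with 7 and 12 on HFD and 4 and 5 on ND. HFD+QG was thus the highest of the 4 female libraries for these 4 genes. With a pseudocount of 5, Os-C, a10 and Obp28a no longer reached 2-fold. Obp28a, at 12 FPKM on HFD+QG, was at 5 on HFD+EGCG, 5 on HFD and 6 on ND. The remaining higher members lay under 10 FPKM on both diets. Males did not share the difference, with 1 higher and none lower among 40 genes, and with Obp83a at 39 FPKM on HFD+QG and 52 on HFD+EGCG. In females the median over 18 rhodopsin and phototransduction genes of the eye was -0.09, with none 2-fold different. Genes of the eye give no measure of the antenna. The part that the amount of head or antenna in a library had in the odorant-binding protein values was not tested.

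Muscle genes were at slightly lower levels on HFD+QG. Of 24 genes, 23 lay below 0, against 36.8% of all described genes. By 2-fold, 3 were lower, against 1.97% of all described genes, and none was higher. The median was -0.20 (-0.17 once every library was brought to 1 sum of FPKM). The flight muscle genes fln, encoding flightin, and TpnC4, encoding a troponin C, were at 5 and 13 FPKM on HFD+QG, 14 and 31 on HFD+EGCG, 7 and 17 on HFD, and 3 and 3 on ND. The flight muscle actin gene Act88F was at 25 FPKM on HFD+QG, 46 on HFD+EGCG, 25 on HFD and 6 on ND. Muscle myosin (Mhc), expressed in all muscles, was almost level, at 255 FPKM on HFD+QG and 279 on HFD+EGCG. The list summed to 6270 FPKM on HFD+QG, 7039 on HFD+EGCG, 6932 on HFD and 3043 on ND. In males 7 of the 23 muscle genes described lay above 0 and 16 below, with a median of -0.06. The list summed to 8535 FPKM in HFD+QG males and 9139 in HFD+EGCG males. TpnC4 went the other way there, at 27 FPKM on HFD+QG and 15 on HFD+EGCG.

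Of 66 nuclear genes of the mitochondrial respiratory chain, 8 lay above 0 and 56 below, with a median of -0.09. Over all described genes, 36.8% lay below 0. After rescaling to 1 sum of FPKM, 13 lay above 0 and 53 below, with a median of -0.06. In males 59 of 84 lay above 0 and 24 below, with a median of 0.05. In females the single member past 2-fold was COX5BL, at 0 FPKM on HFD+QG and 1 on HFD+EGCG. Among 13 genes of the mitochondrial genome, mt:ATPase8 was at 32 FPKM on HFD+QG and 0 on HFD+EGCG, with 18 on HFD and 0 on ND. mt:ND4L was at 97 FPKM on HFD+QG, 42 on HFD+EGCG, 196 on HFD and 177 on ND. These short genes overlap or adjoin others on the same transcripts, and their FPKM are uncertain.

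Genes of digestion and of fat metabolism held few differences. None of 15 Jonah protease genes was 2-fold different (median 0.04). Of 13 trypsins 12 lay below 0, against 36.8% of all described genes, with a median of -0.13. By 2-fold 1 was lower, against 1.97% of all described genes. This was Ser8, at 3 FPKM on HFD+QG and 7 on HFD+EGCG. No digestive carbohydrase among 19 passed 2-fold, with 5 above 0, 6 below and a median of 0. The maltase genes Mal-A6 and Mal-A1, which split sugars in the gut, were at 15 and 67 FPKM on HFD+QG, 28 and 114 on HFD+EGCG, 34 and 173 on HFD, and 114 and 289 on ND. The amylase gene Amy-p was at 418 FPKM on HFD+QG, 593 on HFD+EGCG, 516 on HFD and 1407 on ND. For these maltase and amylase genes HFD+QG was the lowest of the female libraries. Other maltase genes did not share this. Mal-A2 and Mal-B2 were at 21 and 22 FPKM on both diets, and Mal-A3 was at 11 on HFD+QG and 8 on HFD+EGCG. In males Mal-A6 and Mal-A1 were lower on HFD+QG, with Mal-A6 at 66 FPKM on HFD+QG and 136 on HFD+EGCG, and Mal-A1 at 204 and 458. Amylase and maltase genes have close copies that may have shared reads.

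Of 15 genes of fat synthesis none was 2-fold different (median 0.04). Fatty acid synthase (FASN1) was at 155 FPKM on HFD+QG and 127 on HFD+EGCG, with 153 on HFD and 108 on ND. Acetyl-CoA carboxylase (ACC) was at 59 FPKM on HFD+QG and 53 on HFD+EGCG. Likewise no gene of 9 of lipid droplets and lipolysis, and none of 12 of beta-oxidation, passed 2-fold. Among gut and feeding peptides CCHa1, a peptide hormone of the gut and brain, was at 9 FPKM on HFD+QG and 21 on HFD+EGCG, with 6 on HFD and 15 on ND. The larval serum protein gene Lsp2 was at 2 FPKM on HFD+QG and 0 on HFD+EGCG, with 2 on HFD and 123 on ND.

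Across the 44 gene lists, 43 had at least 3 described members, and 22 of these held no 2-fold member, with medians between -0.10 and 0.16. The 12 cell cycle genes lay below 0 in 11 cases, against 36.8% of all described genes, with a median of -0.10. After rescaling to 1 sum of FPKM, 9 lay below 0 and 3 above. In males 11 of 12 lay above 0 and 0 below, with a median of 0.28. In females the cyclin gene CycB was at 449 FPKM on HFD+QG and 460 on HFD+EGCG. Ribosomal proteins had a median of 0 over 81 genes, with none 2-fold different. Of the remaining protein-coding genes, CG33995 was at 10 FPKM on HFD+QG and 1 on HFD+EGCG, and CG8303 at 15 and 6. In the other direction CG34227 was at 81 FPKM on HFD+QG and 175 on HFD+EGCG, and CG7298 at 17 and 39. CG15199 was at 9 FPKM on HFD+QG and 19 on HFD+EGCG. No protein-coding gene at 10 FPKM or more on HFD+EGCG was listed at 0 on HFD+QG, and 6 were in the opposite direction. The most abundant protein-coding genes listed at 0 on HFD+QG, among them CG13716 and pHCl-1, were at 2 FPKM on HFD+EGCG.

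**Figure D5:**
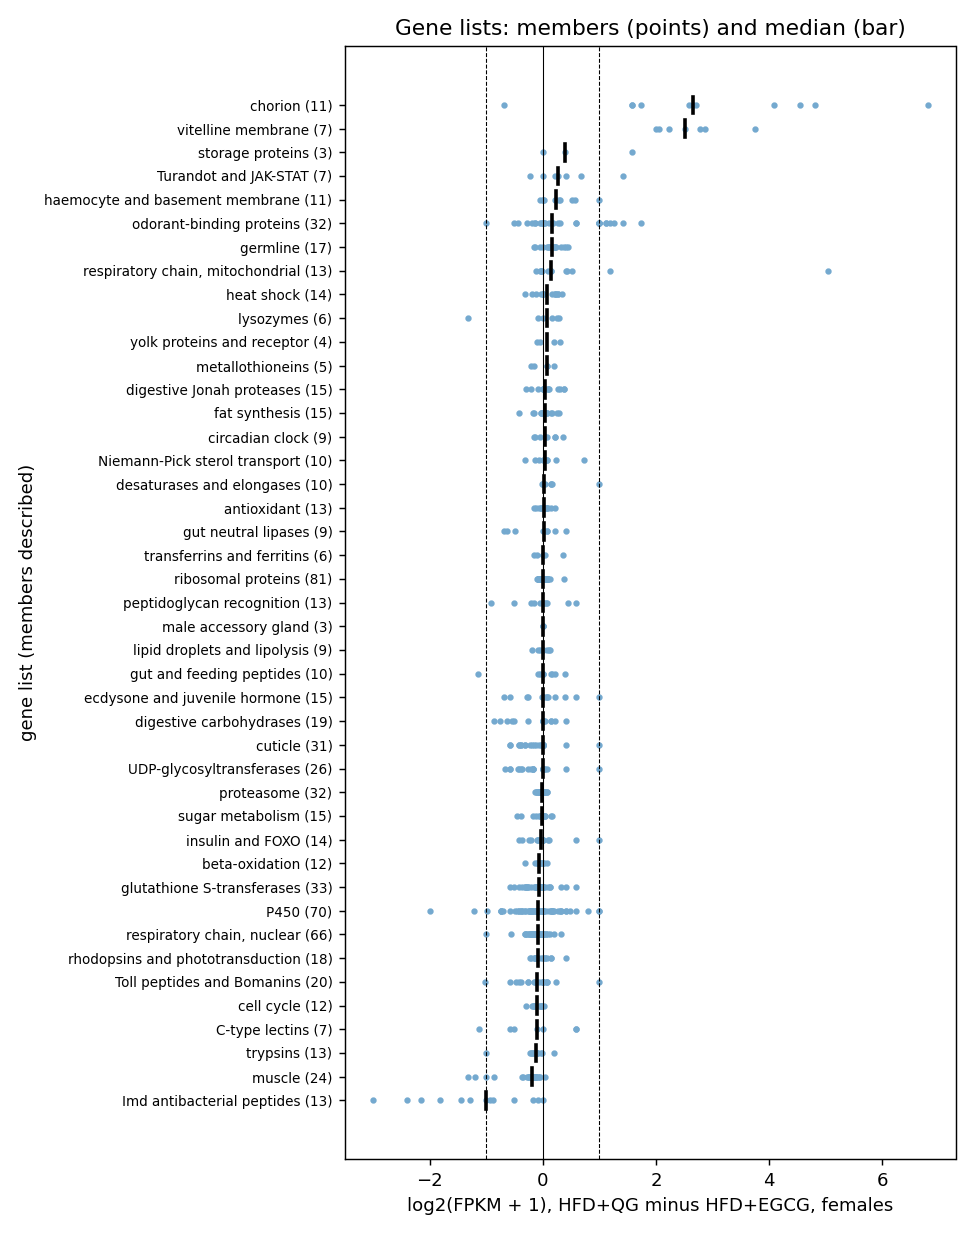
Log2 differences of FPKM + 1, HFD+QG minus HFD+EGCG in females, for the described members of each gene list (points) with the list's median (bar) and the number of members in brackets. The chorion and vitelline membrane lists lie to the right, with medians of 2.66 and 2.52, and the Imd antibacterial peptides to the left, with a median of -1.0.

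Non-coding RNA genes held a large share of the 2-fold calls. Of 561 described, long, antisense and small RNAs together, 105 were higher and 79 lower (32.8%), against 3.07% of 9534 protein-coding genes. At 10 FPKM or more the share was 42.4% of 59 small nucleolar RNA genes, 14 higher and 11 lower, and 3.51% of 57 long non-coding and antisense RNA genes, 1 higher and 1 lower. Some small RNA genes were listed above 0 in a single female library, such as a small nucleolar RNA gene at 118 FPKM on HFD+QG and another at 58 on HFD+EGCG. The spliceosomal RNA gene snRNA:U1:95Cc was at 34 FPKM on HFD+QG and 109 on HFD+EGCG, with 49 on HFD and 41 on ND, and U1 genes are near copies. The calls went in both directions.

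In males the same contrast called 311 of 13304 genes higher (2.34%) and 263 lower (1.98%). At 10 FPKM or more it called 29 of 8057 higher (0.360%) and 55 lower (0.683%). Of 9848 genes described in both sexes, 20 were higher on HFD+QG in both and 20 lower in both, while 23 were higher in females and lower in males and 24 lower in females and higher in males. Over both sexes, limma with diet and sex as terms on all 8 libraries called 0 of 9848 genes (0%) at an adjusted p of 0.05. At an unadjusted p under 0.05 it gave 83 genes, 33 higher and 50 lower on HFD+QG. In that model a difference that points opposite ways in the sexes, or that is seen in females but not in males, counts as error. The model held only genes described in both sexes. None of the 7 vitelline membrane genes entered it, and of the 11 chorion genes only Cp18 did, so it did not test the eggshell difference.

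Several of the 46 protein-coding genes that were 2-fold different at 10 FPKM or more lie close to each other. Genes between them that were not called were passed over. When genes no more than 20000 bp apart were joined, 19 of the 46 fell into 8 runs of 2 or more, and within each run all genes had the same direction. The longest run was Vm26Ab, Vm26Ac, Vm26Aa and psd (2L:5957004-5964951), all higher on HFD+QG. Cp18, Cp19 and Cp16 (3L:8726791-8732599) were higher with Cp15 between them at the value given above. Genes within a run are related copies or share a locus and are not independent observations.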

How the data were processed

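The authors deposited FPKM per FlyBase transcript for each library, rounded to whole numbers and handled here as a score with no read counts behind it. The submitters' processing notes list Cuffdiff 2.2.1, TopHat2 2.1.1 and CASAVA 1.8.2. Per the labels' protocols, Isogen was used for extraction and a SureSelect kit that keeps the strand for the libraries. The genome build and any scaling between libraries are not given in the sources used here.

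The 34475 transcripts were summed per FlyBase gene (17655 genes). Differences were taken as log2(FPKM + 1), and genes at least 2-fold different were counted. Genes were named from Ensembl release 115 (BDGP6.54), which held 17431 of them, 17286 with the same start and end as in the tables. Coordinates are those of the tables. Of the gene list symbols, 4 were not matched. An additive fit of sex and diet over the 8 libraries was made in R 4.3.3 with limma 3.58.1, a trended prior, residual degrees of freedom of 3 and prior degrees of freedom of 2.27. Its p-values were adjusted by Benjamini-Hochberg, with a threshold of 0.05. The labels give 1 library per group and do not say whether libraries come from separate cultures, and the p-values then reflect only how these libraries vary, which may be technical. The steps were tested on simulated data. For the limma fit the simulated diet differences were the same in both sexes. That test therefore cannot show how the fit handles differences that separate the sexes.

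The genes named were, among protein-coding genes above 0 in both libraries and at 10 FPKM or more in either, the 12 with the largest difference in each direction, the 5 of highest FPKM listed at 0 in the other library, and list members at least 2-fold different at 10 FPKM or more, or else a list's 2 most abundant members. Other genes, among them Cp15, the Cp7F genes, Mtk, Cyp6w1, Cyp6d5, Cyp6g1, the maltases, Ser8, Obp19d, Obp56d, Obp99c and the non-coding RNAs, were named after their values were seen. The members and lists were chosen with earlier results of these data known. The name pattern for chorion genes first also matched Cp190, a centrosomal protein gene, which was removed after the values were seen. No sequence is shown.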

Additional observations from a re-analysis of the deposited data

Results flagged for a closer look

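Log2 differences, HFD+QG minus HFD+EGCG, pointed opposite ways in the sexes by at least 2-fold for a set of immune genes at 10 FPKM or more. They were -2.15 in females and 1.55 in males for DptA, and -1.81 and 2.50 for DptB. For CG45045 they were -1.38 in females and 1.82 in males, for IM18 -1.23 and 1.46, and for IBIN -1.02 and 1.19. The female value of IBIN fell short of 2-fold with a pseudocount of 5 (-0.94) and after rescaling (-0.997). The median of the Imd antibacterial peptide list was -1.0 in females and 1.25 in males. There is 1 library for each diet and sex, so that none of these differences between males and females was tested. Of the 5921 genes at 10 FPKM or more in each sex, 5 were higher in females and lower in males, 7 lower in females and higher in males, 4 higher in both and 4 lower in both. The 5 higher in females and lower in males were all small RNA genes. The 7 in the opposite direction were the 5 genes named above with the small RNA genes mir-4975 and snoRNA:Psi28S-2149.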

How the results depend on the processing

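The count of 287 genes higher and 202 lower on HFD+QG depended on the treatment of low values. It was 56 and 33 with a pseudocount of 5, 51 and 35 among genes at 10 FPKM or more, and 64 and 51 with genes listed at 0 in either library left out. The share of calls that were higher was 58.7% as reported and 62.9% with a pseudocount of 5, 61.2% after rescaling to a common sum and 55.7% with genes listed at 0 left out. Rescaling gave 287 and 182, and setting the median to 0 or using no filter left both counts as they were. The chorion median, 2.66, was 1.91 with a pseudocount of 5 and 3.39 at 10 FPKM or more, and the Imd median was -0.93 and -1.37 under those settings. Rescaling moved the median of all genes by 0.02. Of the 46 protein-coding genes 2-fold different at 10 FPKM or more, 38 were still 2-fold with a pseudocount of 5, without fln, IBIN, CCHa1, Obp28a, Os-C, a10, CG15199 and CG8303, and 44 after rescaling, without IBIN and CG15199. None changed direction. limma called 0 genes under every planned setting, and 0 to 0 genes with each library left out in turn, with 68 to 407 genes at an unadjusted p under 0.05. No paired analysis was possible because each group has 1 library and the labels carry no replicate numbers. Depth is unknown, so low values cannot be given a counting error.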

Other observations

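Within some genes the transcripts moved in opposite directions while the gene's sum did not. Of 8360 transcripts at 10 FPKM or more in either library, 126 were higher on HFD+QG and 115 lower. In 28 genes at least 1 transcript was 2-fold higher and another 2-fold lower, and in 26 of these the summed FPKM of the 2 diets lay within 1.2-fold. HmgD, a chromosomal protein gene, had a transcript at 113 FPKM on HFD+QG and 10 on HFD+EGCG, and another at 15 and 112, with gene sums of 488 and 523. SPARC, a basement membrane protein gene, had a transcript at 0 FPKM on HFD+QG and 71 on HFD+EGCG, and another at 88 and 4, with sums of 88 and 75. Synd had transcripts at 0 and 42 FPKM and at 41 and 0, with sums of 75 and 75. How the authors' software divided reads between transcripts was not tested. Only 10191 of the 17655 genes have 1 transcript in the tables, and a gene has up to 75.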
